A study of Mus musculus with 9 samples.

Results

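The 10 genes described here take up cystine, make and recycle glutathione, or use it, and they were chosen by name from the 54532 genes of the expression table: Slc7a11, Gclc, Gclm, Gss, Gsr, Gpx1, Gpx4, Mgst1, Gstm1 and Gsta4. Each name matched 1 gene, and all 10 were expressed above the filter used for testing. The 10 genes were chosen with earlier results of these data known. Their counts and ranks beside those of all genes are therefore only descriptive. RNA sequencing was performed on 9 libraries of b.End3 cells, a mouse brain endothelial line that the labels give as brain microvessel endothelial cells of strain C57BL/6 and that the growth notes call rat. Ctrl (3 libraries) held untreated cells. In Ep1 and Ep2 (3 libraries each), the monolayer was kept for 90 min with 300 µg/mL porfimer sodium, a porphyrin photosensitizer, and then irradiated at 635 nm and 100 mW/cm2 to a light dose of 10 J/cm2 (Ep1) or 20 J/cm2 (Ep2). No library with the photosensitizer alone or with light alone was analysed here, so the effects of drug and light cannot be told apart. The time between irradiation and lysis is not given in the sources used here.

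Photodynamic treatment acts through reactive oxygen species that form where an excited photosensitizer meets oxygen, and glutathione is the main small thiol with which cells meet them. Cystine enters through system xc-, which exports glutamate in exchange, and is reduced to cysteine. Glutamate cysteine ligase joins cysteine to glutamate, glutathione synthetase adds glycine, glutathione peroxidases spend the product on peroxides, glutathione reductase regenerates it with NADPH, and glutathione transferases couple it to reactive molecules. Brain endothelium is known to use this pathway against oxidants from both blood and brain.

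The values are FPKM, that is fragments scaled by gene length and library size, and 16240688 to 19509225 fragments were counted on genes per library. Replicates of a group differed by more than counting noise (chi-square per degree of freedom 2.70 to 13.79), and nothing in the labels says that they came from separate cultures, so the p-values below measure the spread between these samples, which may be technical. The endothelial label was only partly met: of 12 endothelial markers, 2 reached 1 FPKM in at least 3 libraries, Flt1 (6.66 to 11.7 FPKM) and Eng. Emcn and Erg were at 0 in all 9 libraries and Cldn5 in 8 of them. The epithelial keratins Krt8 and Krt18 had 562 to 714 and 230.5 to 332.4 FPKM. Epcam (0.607 to 2.03 FPKM) and Cdh1 (0.0118 to 0.103 FPKM), epithelial markers too, were low. The summed level of the 12 markers was 9.44 to 9.67 FPKM in Ctrl, 9.43 to 10.8 in Ep1 and 13.0 to 14.1 in Ep2, and that of 4 epithelial markers was 859 to 902, 798 to 860 and 900 to 1050 FPKM. Nearly all of the epithelial sum came from Krt8 and Krt18. The higher endothelial sum in Ep2 came from Flt1 (mean 6.90 FPKM in Ctrl and 10.9 in Ep2), while Eng went from 1.32 to 1.13 FPKM and Cdh5 from 0.857 to 0.753. Flt1, Krt18 and Epcam were higher in every Ep2 library than in any Ctrl library, while Eng, Cdh5 and Krt8 overlapped between those groups. The part of the marker levels in the results below was not tested. In bulk RNA, fewer cells of a type and less RNA per cell cannot be told apart.

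Genes for cystine uptake, glutamate cysteine ligase and glutathione reductase were higher at both light doses than in Ctrl. At 20 J/cm2, 2 transferase genes were higher, and Gpx1 and Gpx4, the peroxidase genes among the 10, were lower. Gpx8, a peroxidase gene outside the 10, was higher there. Compared with Ctrl, 4 of the 10 genes rose in Ep1 (Slc7a11, Gclc, Gclm and Gsr), where 6.32% of all 11727 tested genes rose at an adjusted p below 0.05 in limma. None fell in that fit, where 4.97% of all tested genes fell. When single libraries were left out, 3 to 4 of the 10 genes rose in Ep1, against 0.947% to 4.90% of all tested genes. For replicates 1, 2 and 3 of Ctrl in turn that share was 2.02%, 0.981% and 4.90%, and for those of Ep1 it was 1.85%, 3.93% and 0.947%. The share that fell was 0.665% to 3.91% in these fits. At an unadjusted p below 0.05, 2 were lower (Gpx1 and Gpx4) and 4 higher, against 14.6% and 14.9% of all tested genes, and both voom fits on recovered fragments called 2 lower, against 7.57% and 6.04%. In Ep2 compared with Ctrl, 6 rose (the same 4, Mgst1 and Gstm1) against 23.9% of all tested genes, and 2 fell (Gpx1 and Gpx4) against 29.3%. The count that fell was thus not above the share of all tested genes. Between the doses, 5 were higher in Ep2 than in Ep1 (Slc7a11, Gclc, Gsr, Mgst1 and Gstm1) against 18.8%, and 1 was lower (Gpx1) against 25.2%. With median centring of the libraries these shares of all genes became 25.4% and 20.3%, and with voom 22.0% and 19.7%, while the counts among the 10 genes stayed at 5 and 1. The median log2 fold change of the 10 genes was 0.03 in Ep1, 0.56 in Ep2 and 0.29 between the doses, while that of all tested genes was -0.01, -0.03 and -0.01. Both comparisons with Ctrl share the Ctrl libraries.

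Under the stricter rule, which adds an absolute log2 fold change above 0.6, Slc7a11 and Gclm rose in Ep1 (2 of 10, against 0.571% of all tested genes). Slc7a11, Gclc, Gclm, Gsr and Mgst1 rose in Ep2 (5 of 10, against 3.30%), and Mgst1 alone was higher in Ep2 than in Ep1 (against 1.94%). Gsr was just above the limit in Ep2 (0.613) and ranged from 0.549 to 0.670 in the alternative fits. None fell under this rule in limma or in either voom fit, and the lowest log2 fold change was -0.51 for Gpx1 in Ep2. Of all tested genes, 0.222% fell under it in Ep1, 5.87% in Ep2 and 3.97% between the doses. By the libraries alone, 4 of the 10 genes had all Ep1 values above all Ctrl values (20.8% of all tested genes) and 2 had them all below (20.5%). For Ep2 against Ctrl the counts were 6 above (27.0%) and 3 below (32.7%), and for Ep2 against Ep1 they were 5 above (24.1%) and 1 below (30.3%).

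**Figure D1:**
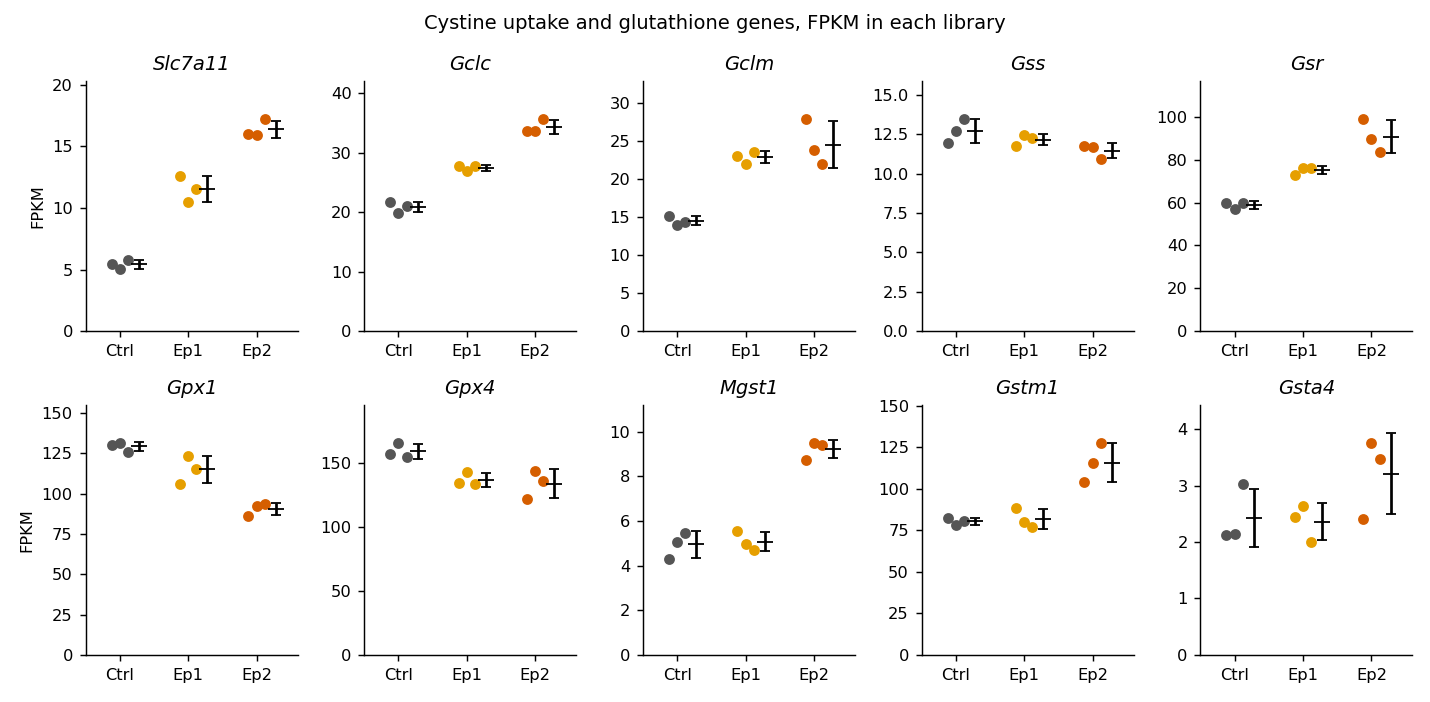
FPKM of each of the 10 genes (vertical axis, from 0) in the 3 libraries each of Ctrl, Ep1 and Ep2 (points, in the order of the replicate numbers), with the group mean and SD as a bar beside them. Slc7a11 climbs from 5.08 to 5.76 FPKM in Ctrl to 15.9 to 17.2 in Ep2 with no overlap between any groups, and Gpx1 descends from 126.0 to 131.5 FPKM to 86.3 to 93.5.

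Where RefSeq lists a promoter for these genes on GRCm38.p6, the 250 bases before the start site were read, which was the case for 7 of the 10 genes. Gclc, Gsr and Gsta4 had no entry. The windows were searched on both strands for TGACNNNGC, the core of the antioxidant response element bound by NRF2, for TGANTCA, an AP-1 site, and for TGATGNAA, the C/EBP-ATF element bound by ATF4. Of 32851 promoter windows of the same length, 10.2% held the first, 6.75% the second and 3.45% the third, and an AP-1 site may overlap an antioxidant response element. Matches were found for Slc7a11, Gclm and Mgst1, whose windows are shown because these genes rose by more than 0.6 on the log2 scale in Ep2. Each is written 5′ to 3′ along the gene, with the matching letters in capitals.
Slc7a11: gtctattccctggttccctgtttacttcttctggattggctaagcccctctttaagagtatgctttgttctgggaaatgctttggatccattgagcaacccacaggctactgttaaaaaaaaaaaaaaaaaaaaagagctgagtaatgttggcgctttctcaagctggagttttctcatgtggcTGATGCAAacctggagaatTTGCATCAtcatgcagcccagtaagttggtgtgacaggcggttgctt
Gclm: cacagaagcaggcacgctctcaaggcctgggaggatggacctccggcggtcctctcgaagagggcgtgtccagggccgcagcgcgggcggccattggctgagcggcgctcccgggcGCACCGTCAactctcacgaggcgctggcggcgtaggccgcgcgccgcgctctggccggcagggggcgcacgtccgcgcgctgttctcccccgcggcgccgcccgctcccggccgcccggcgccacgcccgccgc
Mgst1: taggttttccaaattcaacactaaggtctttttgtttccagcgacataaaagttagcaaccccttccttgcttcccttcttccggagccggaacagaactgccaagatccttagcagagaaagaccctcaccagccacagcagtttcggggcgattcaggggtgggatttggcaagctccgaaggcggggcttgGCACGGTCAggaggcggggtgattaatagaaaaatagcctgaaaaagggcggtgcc
The Slc7a11 window (chr3:50443614-50443863, minus strand) held 2 copies of TGATGCAA, one on the strand of the gene 66 to 59 bases before the start and one on the other strand 47 to 40 bases before it, so the capitals of the second copy read TTGCATCA. In the Gclm window (chr3:122245307-122245556, plus strand), TGACGGTGC lay on the opposite strand, 134 to 126 bases before the start. That of Mgst1 (chr6:138140277-138140526, plus strand) held TGACCGTGC, again on the opposite strand, 56 to 48 bases before the start. This start lies inside Mgst1 as listed in the expression data (138140316 to 138156755), and so does the match. None of the 3 motifs was found in the windows of Gss, Gpx1, Gpx4 (4 windows) and Gstm1 (2 windows) or in a second Mgst1 promoter. Outside the 10 genes, the window of Nfe2l2 held TGACTCCGC 240 to 232 bases before the start. Those of Keap1, Bach1 and Atf4 held no match. A match describes letters in a window and is not evidence of binding.

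Slc7a11 (ENSMUSG00000027737, chromosome 3, 49892526 to 50443614, minus strand) encodes xCT, the transport subunit of system xc- that gives it its specificity for cystine. Its level was 5.42, 5.08 and 5.76 FPKM in the Ctrl libraries, 12.6, 10.4 and 11.5 in Ep1, and 16.0, 15.9 and 17.2 in Ep2. Every Ep1 library lay above every Ctrl library, and every Ep2 library above every Ep1 library. Group means were 5.42 ± 0.341, 11.5 ± 1.06 and 16.4 ± 0.705 FPKM (SD, n = 3 libraries each), which is 2.12 times the Ctrl mean in Ep1 and 3.02 times in Ep2. On the log2(FPKM + 1) scale, which understates the change of low genes, the fold change was 0.96 for Ep1 (SE 0.070, limma adjusted p = 0.00121) and 1.44 in Ep2 (adjusted p = 2.17e-06). The step from Ep1 to Ep2 was 0.48 (95% interval 0.32 to 0.64, adjusted p = 0.000558). Among the 11727 tested genes, Slc7a11 ranked 39 from the highest log2 fold change in Ep1 and 6 in Ep2. Between 1383 and 4249 fragments lay behind each of these values. Of the 100-base stretches of Slc7a11 transcripts, 0.22% also occur in other listed genes. Tuba1b, which shared the most, was listed at up to 780 FPKM, so the level of Slc7a11 carries that uncertainty.

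Slc3a2 encodes the heavy chain CD98hc that carries xCT, and also the light chains of other amino acid transporters, to the cell surface. It is no member of the 10 genes but the partner of Slc7a11, and its level rose less, from 54.0 ± 2.25 FPKM in Ctrl to 65.7 ± 1.15 in Ep1 and 60.4 ± 3.63 for Ep2 (SD, n = 3 each). On the log2 scale these rises were 0.28 (limma adjusted p = 0.0130) and 0.16 (0.0254 as adjusted p). The call in Ep1 was lost without Ctrl replicate 2, Ep1 replicate 1 or Ep1 replicate 3, with adjusted p up to 0.0602, and that in Ep2 held in 9 of 14 alternative fits. The ratio of Slc7a11 to Slc3a2 FPKM was 0.097, 0.093 and 0.112 in the Ctrl libraries, 0.189, 0.162 and 0.173 in Ep1, and 0.282, 0.265 and 0.268 in Ep2. The ratios of the groups did not overlap. In an exact two-sided permutation test, p was 0.1 for each pair of groups (0.15 adjusted over the 6 ratio comparisons made here), and 0.1 is the smallest p that 3 against 3 libraries allow. The mean log2 ratio was higher by 0.80 in Ep1 and by 1.44 in Ep2 than in Ctrl.

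**Figure D2:**
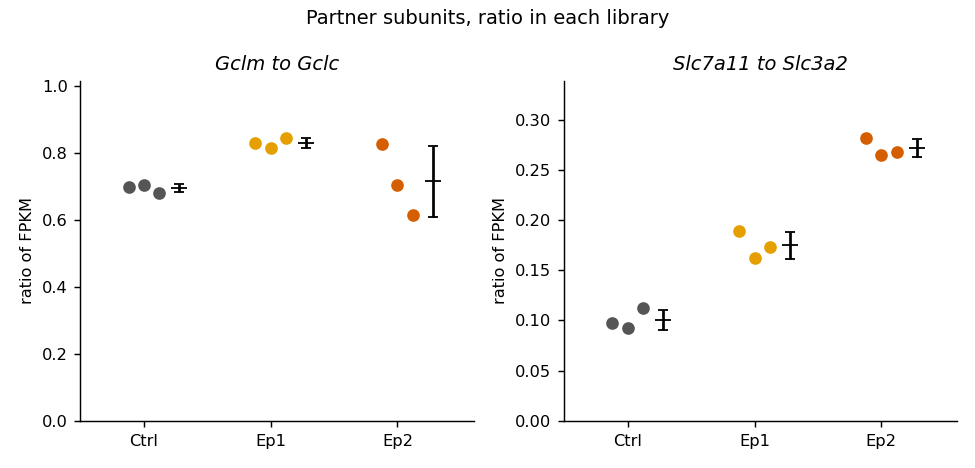
Ratio of the FPKM of Gclm to Gclc (left) and of Slc7a11 to Slc3a2 (right) in each library of Ctrl, Ep1 and Ep2 (points), with the group mean and SD beside them and vertical axes from 0. The right panel rises without overlap from 0.093 to 0.112 in Ctrl to 0.265 to 0.282 in Ep2, while on the left the Ep2 libraries spread from 0.615 to 0.827 around the Ctrl values.

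Gclc and Gclm encode the subunits of glutamate cysteine ligase, the rate-limiting enzyme of glutathione synthesis, and both rose in Ep1 and in Ep2. Gclc (ENSMUSG00000032350, chromosome 9, 77754535 to 77794485, plus strand), the catalytic subunit, had 21.7, 19.9 and 21.1 FPKM in the Ctrl libraries, 27.8, 26.9 and 27.8 in those of Ep1 and 33.7, 33.7 and 35.6 in those of Ep2. The groups followed the light dose without overlap. Means were 20.9 ± 0.888, 27.5 ± 0.502 and 34.3 ± 1.12 FPKM (SD, n = 3 each). The changes against Ctrl on the log2 scale were 0.38 for Ep1 (limma adjusted p = 0.00521) and 0.69 for Ep2 (adjusted p = 5.73e-06), with 0.31 between the doses (adjusted p = 0.000505).

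The modifier subunit gene Gclm (ENSMUSG00000028124, chromosome 3, 122245557 to 122270732, plus strand), whose product lowers the feedback of glutathione on the catalytic subunit, had 15.2, 14.0 and 14.3 FPKM in the Ctrl libraries, 23.0, 22.0 and 23.5 in those of Ep1 and 27.8, 23.8 and 21.9 in those of Ep2. All treated libraries exceeded the Ctrl libraries, but those of Ep1 and Ep2 overlapped, and Ep2 replicate 3 lay just below every Ep1 library. Against Ctrl, the log2 fold change stood at 0.62 for Ep1 (SE 0.077, limma adjusted p = 0.00540) and at 0.71 for Ep2 (adjusted p = 6.97e-05), and without Ctrl replicate 2 the value in Ep1 was 0.598, just under the stricter limit of 0.6. Gclm overlaps Gm17494 on the opposite strand, which was listed at no more than 0.127 FPKM. Of the 100-base stretches of Gclm transcripts, 8.72% also occur in other listed genes, Gm17494 sharing the most. Between the doses the difference of 0.09 did not pass (adjusted p = 0.359, 95% interval -0.08 to 0.27). Relative to Gclc, the FPKM of Gclm was 0.695 ± 0.012 in Ctrl, 0.831 ± 0.015 in Ep1 and 0.716 ± 0.106 for Ep2 (SD, n = 3 each). The Ep1 ratios all exceeded the Ctrl ratios (exact two-sided permutation p = 0.1, the smallest possible, adjusted 0.15). The same exact test gave p = 0.7 for Ep2 against Ctrl (adjusted 0.7) and p = 0.2 for Ep2 against Ep1 (adjusted 0.24).

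Gss (ENSMUSG00000027610, chromosome 2, 155563181 to 155592810, minus strand), the synthetase that completes glutathione, passed in no comparison. Its values were 11.95, 12.7 and 13.5 FPKM in the Ctrl libraries, 11.8, 12.5 and 12.3 in those of Ep1 and 11.8, 11.7 and 10.9 in those of Ep2. Ep2 libraries lay below the Ctrl libraries, and Ep1 overlapped both. Its change against Ctrl was -0.06 on the log2 scale for Ep1 (limma adjusted p = 0.519, 95% interval -0.18 to 0.06) and -0.13 for Ep2 (adjusted p = 0.0588, 95% interval -0.26 to -0.01), and without Ctrl replicate 1 the latter passed (adjusted p = 0.0341). The body of Gss overlaps Acss2 on the opposite strand, which had 2.51 to 4.07 FPKM, and 13.8% of the 100-base stretches of its annotated transcripts also occur in transcripts of other listed genes, so its level is uncertain where counting ignored strand. The strandedness of the counting is not given in the sources used here.

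Gsr (ENSMUSG00000031584, chromosome 8, 33652523 to 33698163, plus strand), the reductase that turns oxidized glutathione back into its reduced form, rose with the dose. Its level was 59.8, 56.8 and 59.9 FPKM in the Ctrl libraries, 72.8, 75.9 and 76.2 in those of Ep1 and 98.9, 89.7 and 83.4 in those of Ep2. The 3 groups did not overlap, although the Ep2 libraries were the most spread. Means of 58.8 ± 1.78, 75.0 ± 1.90 and 90.6 ± 7.77 FPKM (SD, n = 3 each) gave log2 changes against Ctrl of 0.35 for Ep1 (limma adjusted p = 0.0112) and 0.61 for Ep2 (adjusted p = 3.76e-05), and of 0.27 between the doses (adjusted p = 0.00541). The rise in Ep1 missed the threshold without Ctrl replicate 2 (adjusted p = 0.0584) and without Ep1 replicate 3 (adjusted p = 0.0528).

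**Figure D3:**
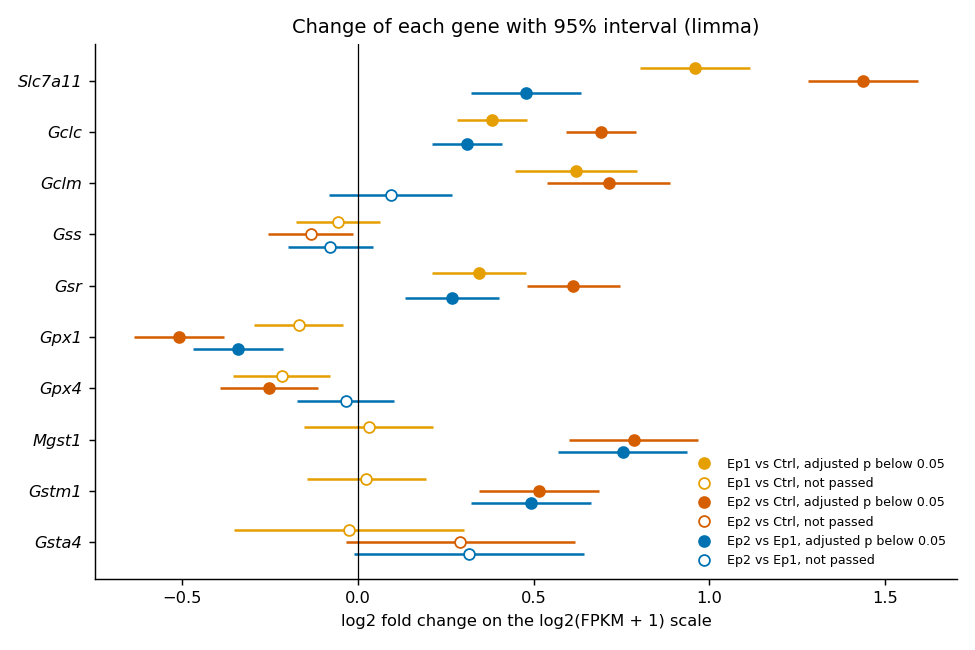
Log2 fold change of each of the 10 genes on the log2(FPKM + 1) scale (horizontal axis) with its 95% interval from limma (bars), for Ep1 vs Ctrl, Ep2 vs Ctrl and Ep2 vs Ep1, filled where the adjusted p was below 0.05. Slc7a11 lies farthest to the right at 1.44 in Ep2, Gpx1 farthest to the left at -0.51, and Mgst1 and Gstm1 lie near 0 in Ep1 and at 0.79 and 0.52 in Ep2.

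The 2 glutathione peroxidase genes were the most abundant of the 10 genes in Ctrl and the only ones that fell. Gpx1 (ENSMUSG00000063856, chromosome 9, 108338903 to 108340343, plus strand), the cytosolic and mitochondrial selenoenzyme that reduces hydrogen peroxide, had 130.3, 131.5 and 126.0 FPKM in the Ctrl libraries, 106.3, 123.4 and 115.6 in those of Ep1 and 86.3, 92.1 and 93.5 in those of Ep2. Each group lay wholly below the one with less light. The mean fell from 129.3 ± 2.87 to 115.1 ± 8.54 and 90.6 ± 3.81 FPKM (SD, n = 3 each), 0.701 times the Ctrl mean in Ep2. On the log2 scale this was a change of -0.51 for Ep2 (limma adjusted p = 8.16e-05) and -0.34 between the doses (adjusted p = 0.00118). For Ep1 it was -0.17 and did not pass (adjusted p = 0.0849), while both voom fits gave an adjusted p of 0.0287 and 0.0475.

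Gpx4 (ENSMUSG00000075706, chromosome 10, 80047166 to 80056439, plus strand), which reduces lipid hydroperoxides within membranes and restrains ferroptosis, had 157.4, 165.8 and 154.8 FPKM in the Ctrl libraries, 134.3, 142.9 and 133.5 in those of Ep1 and 121.7, 143.6 and 136.3 in those of Ep2. Both treated groups lay below Ctrl and overlapped each other. For Ep2 the log2 fold change was -0.25 (SE 0.062, limma adjusted p = 0.00691). For Ep1 it was -0.22 at an adjusted p of 0.0521, close to the threshold, and 6 of 14 alternative fits passed it. The difference between the doses was -0.035 (adjusted p = 0.678, 95% interval -0.17 to 0.10). Of the 100-base stretches of Gpx4 transcripts, 14.8% also occur in the pseudogene Gpx4-ps2, which was listed at up to 58.0 FPKM, so the level of Gpx4 carries that uncertainty.

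Mgst1 and Gstm1, both glutathione transferases, rose in Ep2 and did not pass in Ep1. Mgst1 (ENSMUSG00000008540, chromosome 6, 138140316 to 138156755, plus strand), a membrane-bound transferase that also reduces lipid peroxides, had 4.30, 5.08 and 5.48 FPKM in the Ctrl libraries, 5.54, 4.98 and 4.71 in those of Ep1 and 8.76, 9.51 and 9.42 in those of Ep2. Ctrl and Ep1 overlapped, and all Ep2 libraries stood above them. In Ep2 the mean was 1.86 times that of Ctrl, with a log2 change of 0.79 (SE 0.082, limma adjusted p = 5.65e-05), and it exceeded Ep1 by 0.75 (adjusted p = 0.000114). The value for Ep1 against Ctrl was 0.03 (adjusted p = 0.836, 95% interval -0.15 to 0.22). These values rest on 167 to 358 fragments per library.

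Gstm1 (ENSMUSG00000058135, chromosome 3, 108012255 to 108017973, minus strand), a cytosolic transferase of the mu class, had 82.5, 78.3 and 80.4 FPKM in the Ctrl libraries, 88.7, 79.8 and 77.2 in those of Ep1 and 104.1, 115.5 and 127.7 in those of Ep2. As for Mgst1, Ctrl and Ep1 overlapped while Ep2 lay above both. Its log2 changes were 0.52 for Ep2 against Ctrl (limma adjusted p = 0.000388), 0.49 between the doses (adjusted p = 0.000751), and 0.02 for Ep1 against Ctrl (adjusted p = 0.867, 95% interval -0.15 to 0.19). Of its 100-base stretches, 1.90% are shared with other listed genes, most of them with the pseudogene Gstm2-ps1.

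Gsta4 (ENSMUSG00000032348, chromosome 9, 78182774 to 78209349, plus strand), an alpha class transferase known for conjugating 4-hydroxynonenal, a product of lipid peroxidation, was the least abundant of the 10 genes. It had 2.13, 2.14 and 3.02 FPKM in the Ctrl libraries, 2.44, 2.64 and 2.0 in those of Ep1 and 2.40, 3.76 and 3.47 in those of Ep2. All 3 groups overlapped. With 47 to 89 fragments per library, a log2 change of 0.29 for Ep2 against Ctrl (limma adjusted p = 0.119, 95% interval -0.04 to 0.62) did not pass. It passed without Ctrl replicate 3 (adjusted p = 0.0441) or without Ep2 replicate 1 (adjusted p = 0.0167), which hold the highest Ctrl and the lowest Ep2 value. Between the doses the change was 0.32 (adjusted p = 0.106), and it passed without Ep2 replicate 1 (adjusted p = 0.0163).

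By level per length in Ctrl, Gpx4 (159.3 FPKM) was followed by Gpx1 (129.3), Gstm1 (80.4), Gsr (58.8), Gclc (20.9), Gclm (14.5), Gss (12.7), Slc7a11 (5.42), Mgst1 (4.96) and Gsta4 (2.43). Only the ranges of Slc7a11 and Mgst1 overlapped among neighbours in that order. The means of Ep1 ran in the same order, and there only Gss (11.8 to 12.5 FPKM) and Slc7a11 (10.4 to 12.6) overlapped. In Ep2 the order of means ran Gpx4, Gstm1, Gsr, Gpx1, Gclc, Gclm, Slc7a11, Gss, Mgst1 and Gsta4, so that Slc7a11 (15.9 to 17.2 FPKM) stood above Gss (10.9 to 11.8) and Gstm1 (104.1 to 127.7) above Gpx1 (86.3 to 93.5), while the ranges of Gpx4 and Gstm1, and of Gsr and Gpx1, overlapped. The gene lengths behind FPKM differ from those of 1 main transcript. They are 3.01 times as long for Gss, 1.80 for Gpx4, 1.69 for Mgst1, 1.51 for Slc7a11 and 0.6 for Gsta4. This shifts levels between genes but not the ratio of a gene's FPKM between groups. Changes on the log2(FPKM + 1) scale would move for low genes, which was not computed. Rescaled to the main transcript, the mean of Gss in Ep2 would be 34.4 and that of Slc7a11 24.7, so their order turns, and in Ctrl Gss (38.1) would stand above Gclc (22.8) and Gclm (14.4) and Mgst1 (8.35) just above Slc7a11 (8.18). Gstm1 (123.6) and Gpx1 (121.8) would be nearly level in Ep2.

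Across the 9 libraries, log2(FPKM + 1) of Slc7a11 followed that of Gclc (Pearson r = 0.99), Gsr (0.95) and Gclm (0.93) and ran against that of Gpx1 (-0.91) and Gpx4 (-0.86). Mgst1 and Gstm1 had r = 0.95 with each other. These values describe 9 libraries in 3 groups that share the differences between the groups. Of 7243 tested genes with a mean of at least 5 FPKM outside the 10 genes, those most like Slc7a11 were Eaf1 (r = 0.9968), Klhl2 (0.9965), Gsk3b (0.9952), Wsb1 (0.9948) and Pak2 (0.9930). Their means rose in the same order of groups, but less steeply, for example from 8.53 to 10.7 and 12.4 FPKM for Gsk3b.

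Of 60 further listed genes for cysteine supply, glutathione turnover, glutaredoxins, other peroxidases and transferases, glyoxalases and conjugate transport, 38 were tested. Only Slc3a2 rose in Ep1 (6.32% of all tested genes did), and none fell in limma (4.97%) or in either voom fit (7.57% and 6.04%). At an unadjusted p below 0.05, 3 were higher and 3 lower in Ep1, against 14.9% and 14.6% of all tested genes. In Ep2, 9 of the 38 rose against 23.9% of all tested genes and 11 fell against 29.3%, so these counts were near the background in both directions. Between the doses, 10 were higher (18.8%) and 10 lower (25.2%) in Ep2. Their median log2 fold change was -0.02, -0.01 and -0.02 in the 3 comparisons.

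Of 6 tested genes of cysteine supply, 3 rose (23.9% of all tested genes) and 2 fell (29.3%) in Ep2. Ctns, the lysosomal cystine exporter, rose from 4.35 ± 0.191 to 6.51 ± 0.589 FPKM (SD, n = 3 each), a rise of 0.49 on the log2 scale (limma adjusted p = 0.000214). Slc1a5, a neutral amino acid transporter that carries glutamine, had a log2 change of -0.705 (adjusted p = 5.39e-05). Cbs, which makes cystathionine on the route from homocysteine to cysteine, changed by -0.71 there (adjusted p = 0.00178). It was low, with a mean of 2.86 FPKM in Ctrl and 1.38 in Ep2, and rested on 49 to 206 fragments per library. Cth, an enzyme of the same route, went the other way, with a rise of 0.39 in Ep2 (limma adjusted p = 0.00479). Its mean was 2.04 FPKM in Ctrl and 2.98 in Ep2, on 92 to 160 fragments per library.

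Among 6 turnover genes, 1 rose and 2 fell in Ep2, where 23.9% and 29.3% of all tested genes did. Chac1, which cleaves glutathione and is a known ATF4 target, had 5.15 ± 0.179 FPKM in Ctrl, 7.70 ± 0.601 FPKM for Ep1 and 7.13 ± 2.31 for Ep2 (SD, n = 3 each), with a log2 change of 0.50 in Ep1 at an adjusted p of 0.108. Ggt7, of the gamma-glutamyltransferase family, rose by 0.56 in Ep2 (adjusted p = 0.00242), and Lap3, a leucine aminopeptidase, fell by 0.18 (adjusted p = 0.00138). Of the 4 glutaredoxins, thiol transferases that use glutathione, 2 fell in Ep2 (29.3% of all tested genes fell). Glrx5, a mitochondrial member needed for iron-sulfur clusters, changed by -0.59 (adjusted p = 3.75e-05), and Glrx had -0.17 in Ep1 (adjusted p = 0.115).

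Gpx8, a peroxidase of the endoplasmic reticulum, was the only tested gene of 6 further peroxidases and went opposite to Gpx1 and Gpx4. It stood at 40.3 ± 1.11 FPKM in Ctrl, 41.9 ± 1.80 for Ep1 and 62.3 ± 1.19 for Ep2 (SD, n = 3 each), a rise of 0.62 on the log2 scale for Ep2 (limma adjusted p = 7.58e-06).

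Of 14 further transferase genes tested, 3 rose and 4 fell in Ep2, near the 23.9% and 29.3% of all tested genes. Those that rose were Gstm7 (0.44, limma adjusted p = 0.0191), Gstm2 (0.27, adjusted p = 0.00107) and Gstp1 (0.15, adjusted p = 0.0450). Gstcd had the lowest value, -0.55 (limma adjusted p = 0.000203), and Gsto1, the omega class gene with 147.1 FPKM in Ctrl, had -0.24 (adjusted p = 0.00882) after 0.14 in Ep1 (adjusted p = 0.166). Gsta1 was higher in Ep2 than in Ep1 by 0.77 (adjusted p = 0.0124), on 14 to 69 fragments per library. Neither glyoxalase passed against Ctrl: Glo1 had -0.105 in Ep2 (adjusted p = 0.0540) and Hagh -0.10 in Ep1 (adjusted p = 0.289). Of 5 transport genes, 1 rose (23.9% of all tested genes) and 1 fell (29.3%) in Ep2, the latter Slc25a39, the mitochondrial glutathione importer (-0.39, adjusted p = 0.000396), while Abcc5 had -0.13 in Ep1 (adjusted p = 0.144).

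Of 4 regulators of the pathway, Bach1, a repressor at antioxidant response elements, rose from 10.9 ± 0.644 FPKM in Ctrl to 15.6 ± 0.829 for Ep1 and 19.7 ± 0.484 for Ep2 (SD, n = 3 each). Its rises on the log2 scale were 0.47 (limma adjusted p = 0.00521) and 0.79 (adjusted p = 7.00e-06). Of the 4, 2 rose in Ep1 and 3 in Ep2, against 6.32% and 23.9% of all tested genes, and none fell (4.97% and 29.3%). Atf4 rose by 0.40 and 0.45, Nfe2l2, which encodes NRF2, passed in Ep2 (0.25, adjusted p = 0.0319) but not in Ep1, and Keap1, the inhibitor of NRF2, passed in neither.

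**Figure D4:**
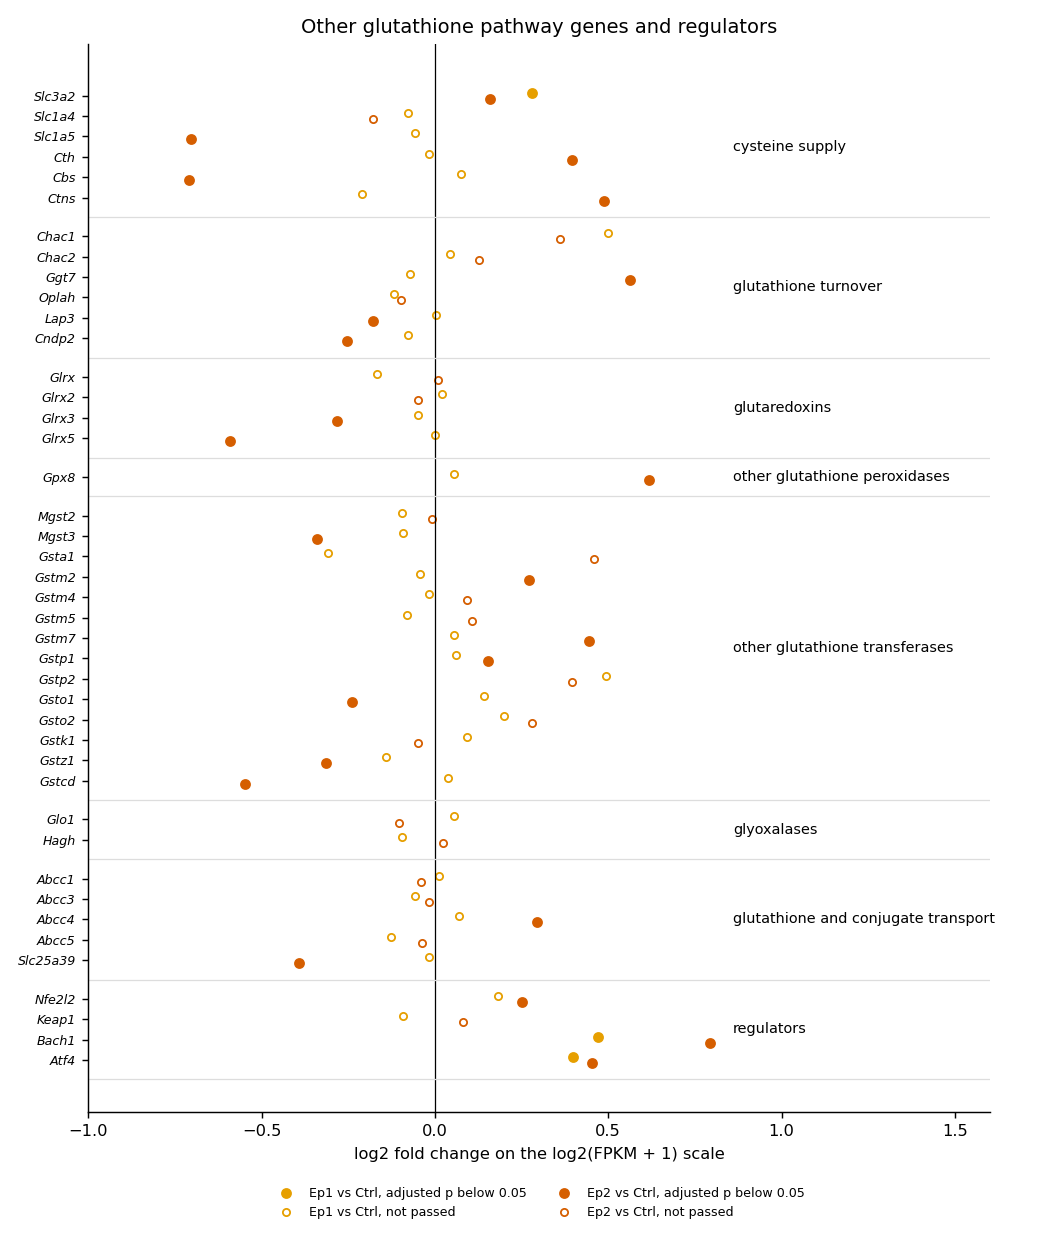
Log2 fold change on the log2(FPKM + 1) scale (horizontal axis) of the 38 further pathway genes and 4 regulators, grouped by role, for Ep1 vs Ctrl and Ep2 vs Ctrl, filled where the adjusted p in limma was below 0.05. In Ep1 the filled points are Slc3a2 (0.28), Bach1 (0.47) and Atf4 (0.40), while in Ep2 they lie on both sides of 0, from -0.71 for Cbs to 0.79 for Bach1.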

How the data were processed

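RNA sequencing of b.End3 cells gave 9 libraries, 3 per group, grouped by their titles. The authors aligned the reads and deposited FPKM per gene and library, in a joint table and in 9 single tables with equal values. Their methods name GRCm39, and the submitters' processing notes list mm8 and Bowtie 0.12.2, but the listed positions of all 10 genes lie on GRCm38, to which positions here refer. The counting tool and strandedness are not given in the sources used here. In every library, 100% of the products of FPKM and gene length were whole multiples of the value of 1 fragment (within 0.05), which gave fragments per gene. A count of 0 allows up to 3 fragments, for counting error only.

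The 11727 genes that reached 1 FPKM in 3 or more libraries were fitted on log2(FPKM + 1) with limma 3.58.1 in R 4.3.3, all 9 libraries in one model without covariate (eBayes, trend and robust options), with Benjamini-Hochberg adjustment of p-values per comparison. A gene rose or fell at an adjusted p below 0.05. The stricter rule also asked for a log2 fold change beyond 0.6 either way. The pseudocount of 1 pulls the changes of low genes towards 0. Ratios were compared by exact permutation tests (scipy 1.17.1), two-sided, adjusted over 6 comparisons. The fit was first tested on simulated data with the same spread setting for every gene and few changed genes. That does not measure false calls in these libraries.

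The 10 genes and the other lists were chosen with earlier results of these data known. Named besides the 10 genes were pathway genes and regulators past the stricter rule in any comparison, the gene of each list with the smallest adjusted p in Ep1 and in Ep2, and the 5 genes most correlated with Slc7a11. Eng, Krt8, Krt18, Epcam, Cdh1, Emcn, Erg, Cldn5, Cdh5, Flt1, Atf4, Nfe2l2 and Keap1 were named to check the cell label or to complete the regulators. Cth, Gstm2, Gstm7 and Gstp1 were named to complete the genes of their lists that rose in Ep2. They are not in the counts over the alternatives. Alternatives were median centring, no filter, a filter at 5 FPKM, a pseudocount of 0.1, a replicate block, fits of only the groups compared, voom on recovered fragments (14112 genes), and omission of each library. Voom with the library sizes behind FPKM was chosen after seeing the data. Shared sequence was counted over 100-base stretches of GENCODE M39 transcripts, whose main transcript also gave the lengths for rescaled levels, and promoters were read from RefSeq windows. The qRT-PCR and imaging data were not used here.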

Additional observations from a re-analysis of the deposited data

How the results depend on the processing

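Of the changes of the 10 genes over all alternatives, 395 kept direction and side of the threshold, 12 came to pass it, 2 no longer passed it and 8 changed sign. Those that changed sign were all values that had not passed. Gpx4 between the doses was 0.021 with median centring, 0.001 with voom and 0.032 without Ep2 replicate 1, with a range of -0.087 to 0.032 when single libraries were left out. In Ep1, Mgst1 was -0.050 without Ctrl replicate 1 and -0.023 without Ep1 replicate 1, Gstm1 was -0.034 without Ep1 replicate 1, and Gsta4 was 0.095 without Ctrl replicate 3 and 0.054 without Ep1 replicate 3. Leaving out single libraries, these ranged from -0.050 to 0.096 for Mgst1, from -0.034 to 0.065 for Gstm1 and from -0.086 to 0.095 for Gsta4.

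The number of the 10 genes lower in Ep1 rose from 0 to 1 (Gpx4) with median centring, with the filter at 5 FPKM, with the replicate block and with only the 2 groups compared, and to 2 with both voom fits. The share of all tested genes lower in these fits was 5.65%, 7.82%, 4.0%, 8.60%, and 7.57% and 6.04%, against 4.97%. The replicate block (adjusted p = 0.0369 for Gpx4) rests on numbers that do not pair the libraries (correlations of -0.06 to 0.07 between deviations of same-numbered libraries), and it changed no other call of the 10 genes. Under the stricter rule, Gclm in Ep1 lay just below the limit without Ctrl replicate 2 (0.598). Gsr in Ep2 lay on either side of the limit over the alternative fits (0.549 to 0.670). Of the 38 further pathway genes, 3 rose and 1 fell in Ep1 with only the 2 groups compared (9.83% and 8.60% of all tested genes). When single libraries were left out, 0 to 1 of them rose in Ep1, against 0.947% to 4.90% of all tested genes. The difference in log2 ratio of Slc7a11 to Slc3a2 between Ep2 and Ctrl was 1.28 with a pseudocount of 1 in place of 1.44. Of the values for other named genes, 463 kept direction and side of the threshold, 19 no longer passed and 3 came to pass. Causes were not tested. Among the 10 genes, the fewest fragments lay behind Gsta4 (47 to 89 per library) and Mgst1 (167 to 358). Of the other named genes, Gsta1 (14 to 69), Cbs (49 to 206) and Cth (92 to 160) also had few. Groups of 3 libraries allow no exact test below p = 0.1.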
